A study of Mus musculus with 12 samples.

Results

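The experiment asked whether the zone of the heart mattered more for one kind of macrophage than for the other. For each gene, the log2 ratio of infarct zone to remote zone was taken in CD45.2+ macrophages and in CD45.1+ macrophages, and the second ratio was subtracted from the first. All 12 libraries of the series enter this difference, 3 in each of 4 groups, and 18773 of 55487 genes in the table were tested. A value above 0 means that the gene was more tilted to the infarct zone in CD45.2+ cells than in CD45.1+ cells.

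The 4 groups were CD45.2+ macrophages of the infarct zone (CD45.2 IZ), CD45.2+ macrophages of the remote zone (CD45.2 RZ), CD45.1+ macrophages of the infarct zone (CD45.1 IZ) and CD45.1+ macrophages of the remote zone (CD45.1 RZ), with 3 libraries each. Every library came from hearts of chimeric mice taken 2 days after the heart was injured by ischemia and reperfusion (I/R), in which a coronary artery was tied and then reopened, so no group is free of injury. The hosts were CD45.2 Mx1Cre Myb flox/flox mice treated with polyI:C, which switches on the Cre and deletes Myb, a factor that blood-forming cells need, and they then received bone marrow of congenic C57BL/6 CD45.1 mice. CD45.2+ macrophages (called resident by the study) therefore carry the host genotype and saw polyI:C, and CD45.1+ macrophages (called recruited) do not carry the Mx1Cre or the floxed Myb. The study's design text gives a chimerism above 90% rather than complete, so any macrophage that came from remaining host marrow falls in the CD45.2+ gate, and the share of such cells in each library was not measured here. Genotype, polyI:C exposure and origin cannot be told apart between CD45.2+ and CD45.1+ cells, although each zone effect is taken within one of them. Cells were sorted into bulk lysates, and in bulk samples fewer cells of a type and less RNA per cell cannot be told apart.

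Tissue-resident heart macrophages are long-lived cells seeded largely before birth that clear debris and carry receptors such as Lyve1, Timd4 and Cd163. After an infarct, monocytes that carry Ly6C and the chemokine receptor Ccr2 enter the injured muscle in large numbers and turn into macrophages there. The infarct zone also holds dying muscle, clotted plasma, low oxygen and new matrix, to which both kinds of macrophage are exposed.

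Depth was high and similar between groups, with gene counts that summed to 33253340 to 53487236 in CD45.2 IZ, 46855805 to 55418128 in CD45.2 RZ, 42996887 to 55329986 in CD45.1 IZ and 47596586 to 63435529 in CD45.1 RZ libraries. A read pair adds a count to every gene it overlaps, so these sums are not numbers of reads. Library numbers run in 3 sets of 4 (S104-S107, S108-S111 and S112-S115), each with 1 library per group. In set S108-S111 the Y-linked Ddx3y was at 62.1 to 79.6 CPM (counts scaled to the size of the library) and Xist at 0.0667 CPM or less, while the other sets had Xist at 32.9 CPM or more and Ddx3y at 0.0630 CPM or less, so the sets also differ in the sex of the cells. Set S104-S107 stood apart from the others on the second principal component of log2 CPM (33.4 to 77.1 against -43.2 to -14.5), which held 15.02% of the variance. Summed CPM of 6 macrophage markers (Ptprc, Itgam, Adgre1, Fcgr1, Csf1r and Cd68) was 6864 to 7228 in CD45.2 IZ, 8069 to 9251 in CD45.2 RZ, 6792 to 7349 in CD45.1 IZ and 7120 to 7368 in CD45.1 RZ libraries. Csf1r and Cd68 were not among the markers used for the sort. Csf1r alone was at 2386 to 3178 CPM in CD45.2 IZ and 4277 to 4800 CPM in CD45.2 RZ libraries. Single markers shifted in opposite directions. Adgre1 was at 999 to 1713 CPM in CD45.2+ and 590 to 1058 CPM in CD45.1+ libraries, and Itgam at 592 to 1239 and 1492 to 2144 CPM. The sum does not tell macrophages from other cells that carry some of these markers. Deviations from the group means correlated between all 18 same-set pairs of libraries (lowest r = 0.118, median 0.366), against a median of -0.248 over the 36 pairs from different sets, whose highest value of 0.194 was above the lowest of the same-set pairs. That value was for S109 of set S108-S111 and S115 of set S112-S115. Most other pairs between these sets were also above 0.1, such as S110 with S115 (0.163) and S111 with S113 (0.135). Those of S108 were at 0.04 or less. Every pair of S104-S107 with another set was negative. A correlation threshold of 0.1 thus does not tell S108-S111 and S112-S115 apart, although they differ in Xist and Ddx3y as given above. Deviations cancel out within each group, so positive same-set values bring negative values between sets. The negative median is thus no separate support for the sets. The labels do not say which animals a set came from, and the p-values measure the spread between these libraries.

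The difference between the zone effects lay mainly on the side of the CD45.2+ cells for the genes that were called, of which 11 are on a list of classical monocyte genes, 29 are on any list and the others on none. Without the library sets in the model, edgeR's quasi-likelihood test called 0 of 18773 genes for the difference (0.0%) at an adjusted p under 0.05, with 821 genes (4.37%) at an unadjusted p under 0.05 and a smallest adjusted p of 0.0556. With the sets as blocks it called 94 genes (0.501%, with 7.81% at an unadjusted p under 0.05), 93 more positive in CD45.2+ cells (0.495%) and 1 more negative (0.00533%). DESeq2 without blocks called 139 positive and 24 negative genes, limma-trend 3 and 0, and limma-voom 25 and 0. Every call described here as passing therefore rests on the blocked fit, which is named the blocked fit from here on, while fold changes and their SE come from the fit without blocks unless said otherwise. With 1 library left out at a time, 20 of the 93 were called in all 12 blocked fits and 50 in 6 or more, and for genes described by their values below that were called in fewer than 6 this number is given. The last of the 94 genes had an adjusted p of 0.0491 and the next gene 0.0506.

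Each zone effect was also tested alone. In CD45.2+ cells 330 genes (1.76%) differed between IZ and RZ without blocks, 275 up (1.46%) and 55 down (0.293%), and with blocks 1457 (7.76%), 950 up (5.06%) and 507 down (2.7%). In CD45.1+ cells 0 genes (0.0%) passed without blocks, with 1486 at an unadjusted p under 0.05 (7.92%), 190 called by DESeq2, 1 by limma-trend and 0 by limma-voom, and 59 (0.314%) passed with blocks, 12 up (0.0639%) and 47 down (0.25%), with 13.2% at an unadjusted p under 0.05. These counts do not by themselves show that the zone effects differ, which is what the 94 calls test.

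**Figure D1:**
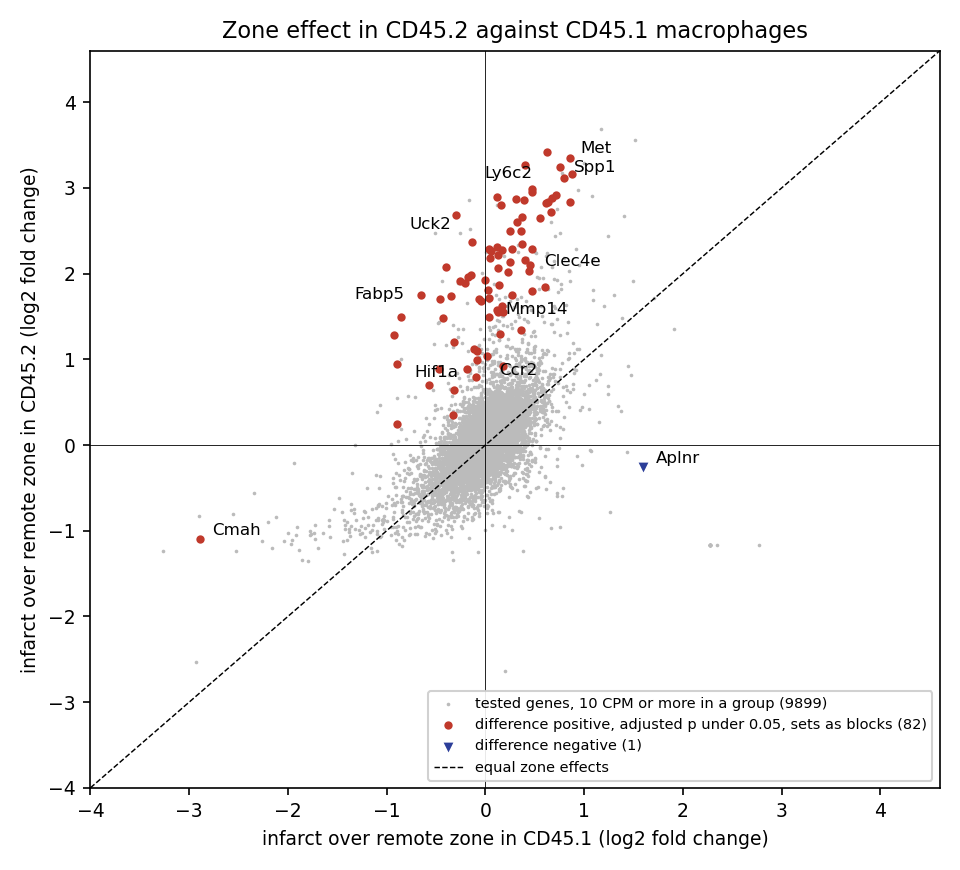
Log2 fold change of infarct over remote zone in CD45.2+ macrophages (vertical) against that in CD45.1+ macrophages (horizontal) for the 9899 tested genes with a mean of 10 CPM or more in at least 1 group (7 lie outside the axes). Red points are 82 genes whose difference was positive in the fit with library sets as blocks, and the blue triangle is Aplnr, the 1 negative gene; most red points stand far up on the vertical axis and near 0 on the horizontal one, while Cmah sits at the lower left.

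Among the 93 positive genes the median difference was 2.09 on the log2 scale, with a range of 0.68 to 7.90. Their median zone effect was 2.07 in CD45.2+ cells and 0.12 in CD45.1+ cells, and 91 of the 93 also passed as higher in IZ in CD45.2+ cells in the blocked fit (74 without blocks), against 1 up and 2 down in CD45.1+ cells. CD45.2 IZ libraries lay above all CD45.2 RZ libraries for 87 of the 93 genes (93.5%), a pattern held by 10.0% of all tested genes, and in CD45.1+ cells the same was true for 11 genes (11.8%, against 7.04% of all genes), while CD45.1 IZ lay below CD45.1 RZ for 10 (10.8%, against 8.5%). CD45.2+ levels were below CD45.1+ levels without overlap for 81 of the 93 genes in IZ (87.1%, against 19.5% of all genes) and for 88 in RZ (94.6%, against 20.2%). For the 82 genes with a mean of 10 CPM or more in some group, the CD45.2+ level was a median of 28.4% of the CD45.1+ level in IZ and 7.43% in RZ. The usual pattern was thus high in CD45.1+ cells of both zones, intermediate in CD45.2 IZ and low in CD45.2 RZ. Since the calls used these libraries, these shares describe the 93 genes and are no further evidence.

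The positive calls with the smallest unadjusted p in the fit without blocks were Uck2, Bhlhe40 and Clec4e, none of which passed there (adjusted p = 0.0556 for each). Uck2 (ENSMUSG00000026558, chr1:167222883-167285320 of GRCm38.p6, minus strand) encodes a kinase that salvages uridine and cytidine for nucleotide synthesis. It was at 25.3, 26.2 and 20.0 CPM in CD45.2 IZ and 6.00, 3.22 and 4.59 CPM in CD45.2 RZ libraries, against 86.2, 81.7 and 61.8 CPM in CD45.1 IZ and 93.9, 88.8 and 70.1 CPM in CD45.1 RZ libraries (each in the order of the sets). The CD45.2+ zones were fully apart and the CD45.1+ zones overlapped. The zone effect was 2.37 ± 0.23 (log2, ± SE, 3 libraries per group) in CD45.2+ and -0.14 ± 0.21 in CD45.1+ cells, a difference of 2.51 ± 0.30 that was positive in all 3 sets (2.19, 3.13 and 2.29) and passed in the blocked fit (adjusted p = 0.00322). Uck2 shares exon positions with Gm2453, and reads were counted without strand.

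Bhlhe40, a transcription factor induced in activated myeloid cells (chr6:108660629-108666925, plus strand), was at 45.14, 51.01 and 40.6 CPM in CD45.2 IZ and 12.9, 11.2 and 9.57 CPM in CD45.2 RZ libraries, against 129, 156 and 139 CPM in CD45.1 IZ and 109.4, 152.4 and 100.8 CPM in CD45.1 RZ libraries. Clec4e encodes Mincle, a lectin receptor for microbial glycolipids and for products of dead cells (chr6:123281789-123289870, minus strand). Its levels were 91.8, 82.7 and 103 CPM in CD45.2 IZ and 19.7, 19.5 and 17.9 CPM in CD45.2 RZ libraries, against 312, 269.9 and 305 CPM in CD45.1 IZ and 176, 283 and 181 CPM in CD45.1 RZ libraries. Both genes kept the CD45.2+ zones apart by more than the spread of either group, while the CD45.1+ zones overlapped, since the CD45.1 RZ library of set S108-S111 reached the infarct levels. The differences were 1.80 ± 0.24 for Bhlhe40 and 1.81 ± 0.24 for Clec4e (adjusted p in the blocked fit 0.00322 and 0.00968), positive in all 3 sets. Map4k1, a kinase of blood cells also known as HPK1 (chr7:28982050-29003279, plus strand), was at 25.3, 27.7 and 26.1 CPM in CD45.2 IZ and 10.9, 8.01 and 7.68 CPM in CD45.2 RZ libraries, against 76.0, 85.4 and 94.9 CPM in CD45.1 IZ and 69.8, 87.7 and 79.4 CPM in CD45.1 RZ libraries. Its difference of 1.46 ± 0.21 was again carried by non-overlapping CD45.2+ zones (adjusted p = 0.0128 in the blocked fit). Bhlhe40 shares exon positions with the antisense gene 0610040F04Rik, and Clec4e and Map4k1 share none with another gene. The remaining genes of the 12 positive ones named by smallest p were Napsa with its antisense partner Gm15396, Gcnt2 with Gm31683, 0610040F04Rik, Mcemp1, Arhgap24 and Mmp8, with differences of 1.78 to 2.30, and all of them passed in the blocked fit.

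**Figure D2:**
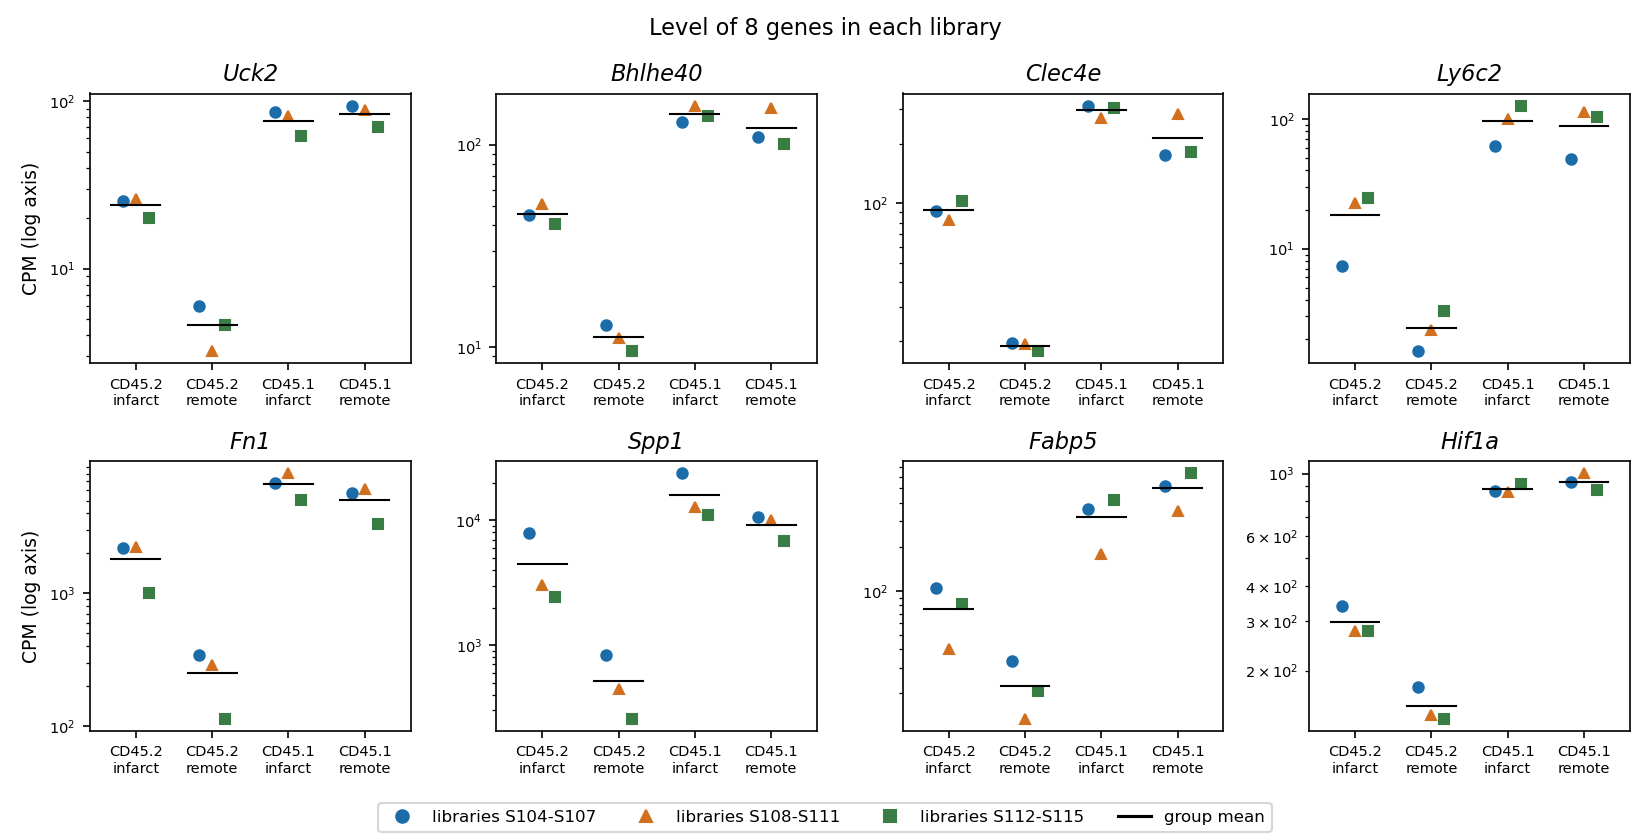
CPM on a log axis of 8 genes with a positive difference in each of the 12 libraries, by group, with marker shape and colour for the library set and a black line for the group mean. In each panel the 3 CD45.2 infarct libraries stand above the 3 CD45.2 remote libraries and, except for 1 library in the panel of Spp1, below all CD45.1 libraries, for example 20.0 to 26.2 CPM for Uck2 against 3.22 to 6.00 CPM in CD45.2 remote and 61.8 to 93.9 CPM in CD45.1 libraries.

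The promoters of 3 of these genes, from 250 bases before to 50 bases after the RefSeq start (GRCm38.p6), are shown because the genes stood at the head of the ranking and their zone behaviour was alike while their promoter letters were not. Capitals mark matches to the searched motifs on either strand, which were ACGTG (hypoxia response), TGANTCA (AP-1), NF-kappa-B (GGGA and CC with 4 bases between them), GAGGAA (PU.1), TTGCNNCAA (C/EBP) and TGACGTCA (CRE). The Uck2 promoter (chr1:167285078-167285377, minus strand, its RefSeq start 193 bases from the gene start of the count annotation) held none of them, that of Clec4e (chr6:123289822-123290121, minus strand) held ACGTG once and GAGGAA at 2 places, and that of Map4k1 (chr7:28981800-28982099, plus strand) held CACGTG, which reads as ACGTG on both strands.
Uck2: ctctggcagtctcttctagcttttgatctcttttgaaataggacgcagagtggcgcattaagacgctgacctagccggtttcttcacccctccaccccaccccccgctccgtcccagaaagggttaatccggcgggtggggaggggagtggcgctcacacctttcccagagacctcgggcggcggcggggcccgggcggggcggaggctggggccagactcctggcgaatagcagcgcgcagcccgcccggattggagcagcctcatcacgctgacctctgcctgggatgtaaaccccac
Clec4e: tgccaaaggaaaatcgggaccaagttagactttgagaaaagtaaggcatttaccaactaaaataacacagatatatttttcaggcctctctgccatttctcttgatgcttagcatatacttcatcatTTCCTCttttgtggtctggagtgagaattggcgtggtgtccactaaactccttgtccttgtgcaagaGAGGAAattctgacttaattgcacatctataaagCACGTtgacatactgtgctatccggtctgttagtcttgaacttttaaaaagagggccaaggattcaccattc
Map4k1: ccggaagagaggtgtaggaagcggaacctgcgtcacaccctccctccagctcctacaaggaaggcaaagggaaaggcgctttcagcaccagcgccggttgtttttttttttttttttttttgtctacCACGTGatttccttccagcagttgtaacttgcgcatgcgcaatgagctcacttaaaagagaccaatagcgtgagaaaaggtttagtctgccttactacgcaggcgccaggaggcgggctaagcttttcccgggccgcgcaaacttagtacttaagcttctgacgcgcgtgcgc
Of the 93 positive genes, 62 had a RefSeq promoter. ACGTG was in 25 of these (40.3%) and in 24.9% of the 11590 promoters of tested genes, TGANTCA in 16.1% and 5.37%, the NF-kappa-B motif in 27.4% and 25.9%, GAGGAA in 29.0% and 27.4%, TTGCNNCAA in 1.61% and 1.66%, and TGACGTCA in 0.0% and 3.05%. These shares were not tested, and a match of letters is not a bound site.

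Of the 24 lists of gene programs, that of classical monocytes held the most calls. The lists were chosen with earlier results of these data known, so this rank is only a description. Of 25 listed and tested, 22 had a difference above 0 with a median of 1.20, against 0.04 over all genes tested and 55.6% of them above 0. In the blocked fit 11 of the 25 passed as positive and 0 as negative (0.495% and 0.00533% of all genes): Ly6c2, Ccr2, Fn1, Chil3, Napsa, Hp, Vcan, Thbs1, Plac8, F10 and Sirpb1c. Of these, Thbs1, Plac8 and F10 were called in 4 and Sirpb1c in 2 of the 12 fits with 1 library left out, and the other 7 in at least 10. Without blocks edgeR called 0 of them, with 16 at an unadjusted p under 0.05, DESeq2 10, limma-voom 3 and limma-trend 0. In CD45.2+ cells 17 of the 25 were higher in IZ in the blocked fit (5.06% of all genes were) and 11 without blocks (1.46%). In CD45.1+ cells edgeR called 0 in either fit, with 1 at an unadjusted p under 0.05 without blocks and 2 with them, and DESeq2 and limma called 0. The list's median difference was lower in set S104-S107 (0.44) than in S108-S111 (1.82) and S112-S115 (1.599).

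Ly6c2, the surface protein that marks inflammatory monocytes, was at 7.29, 22.6 and 24.6 CPM in CD45.2 IZ and 1.63, 2.36 and 3.29 CPM in CD45.2 RZ libraries, against 62.2, 99.0 and 126 CPM in CD45.1 IZ and 48.9, 113.2 and 103.5 CPM in CD45.1 RZ libraries. The libraries of set S104-S107 were the lowest in all 4 groups, and the CD45.2+ zones did not overlap. Ccr2, the receptor for the chemokine Ccl2 by which these cells leave the marrow, was at 194, 378 and 326 CPM in CD45.2 IZ and 106.7, 192 and 139.9 CPM in CD45.2 RZ libraries, against 900.1, 1560.1 and 1250.2 CPM in CD45.1 IZ and 862, 1519.8 and 1296 CPM in CD45.1 RZ libraries. The Ccr2 zones differ by a small margin across sets (194 in IZ of one set, 192 in RZ of another) but by a similar factor within each set, with differences of 0.80, 0.94 and 1.27. Ccr2 passed with blocks (1.00 ± 0.14, adjusted p = 0.0115) and not without them (1.02 ± 0.43, adjusted p = 1). For Ly6c2 the difference was 2.79 ± 0.65 without blocks (adjusted p = 0.262) and 2.66 ± 0.26 with them (adjusted p = 0.00322).

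Fn1, which encodes fibronectin, a plasma and matrix protein that monocytes also make, was at 2213, 2221 and 997 CPM in CD45.2 IZ and 345, 289 and 113.7 CPM in CD45.2 RZ libraries, against 6838, 8038 and 5045 CPM in CD45.1 IZ and 5738, 6119 and 3337 CPM in CD45.1 RZ libraries. Its difference was 2.47 ± 0.59, nearly the same in each set (2.43, 2.55 and 2.54), and the antisense gene Apol7d at the same place gave 2.48 ± 0.59. Chil3, a chitinase-like lectin of monocytes and alveolar macrophages, had a difference of 2.14 ± 0.37, with 209, 288 and 456 CPM in CD45.2 IZ and 78.5, 71.1 and 60.8 CPM in CD45.2 RZ libraries, against 1899, 1995 and 2944 CPM in CD45.1 IZ and 1907, 2385 and 2343 CPM in CD45.1 RZ libraries. In both genes the CD45.2+ zones stood apart and the CD45.1+ zones overlapped. The aspartic protease Napsa, haptoglobin (Hp) and the coagulation factor gene F10 had differences of 2.09 ± 0.30, 2.13 ± 0.37 and 2.28 ± 0.58. Members that missed the threshold in both fits included Cd177 (1.76 ± 0.76), S100a4 (0.87 ± 0.27) and the interferon-induced Ifitm3 (-0.15 ± 0.33).

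Within each set the level of these monocyte genes in CD45.2+ cells was expressed as a percent of that in CD45.1+ cells of the same zone. The median over the 25 genes was 21.6%, 25.7% and 25.1% in IZ and 12.5%, 10.1% and 8.42% in RZ in the order of the sets, and the 2 zones did not overlap. The same ratio turned round for 28 resident macrophage genes, the CD45.1+ level as a percent of the CD45.2+ level, was 12.8%, 7.45% and 11.4% in IZ and 9.76%, 8.88% and 16.8% in RZ, which overlapped. Comparing such ratios between zones restates the tested difference. Of the 25 monocyte genes 11 were called for it, so their ratios are no further evidence.

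**Figure D3:**
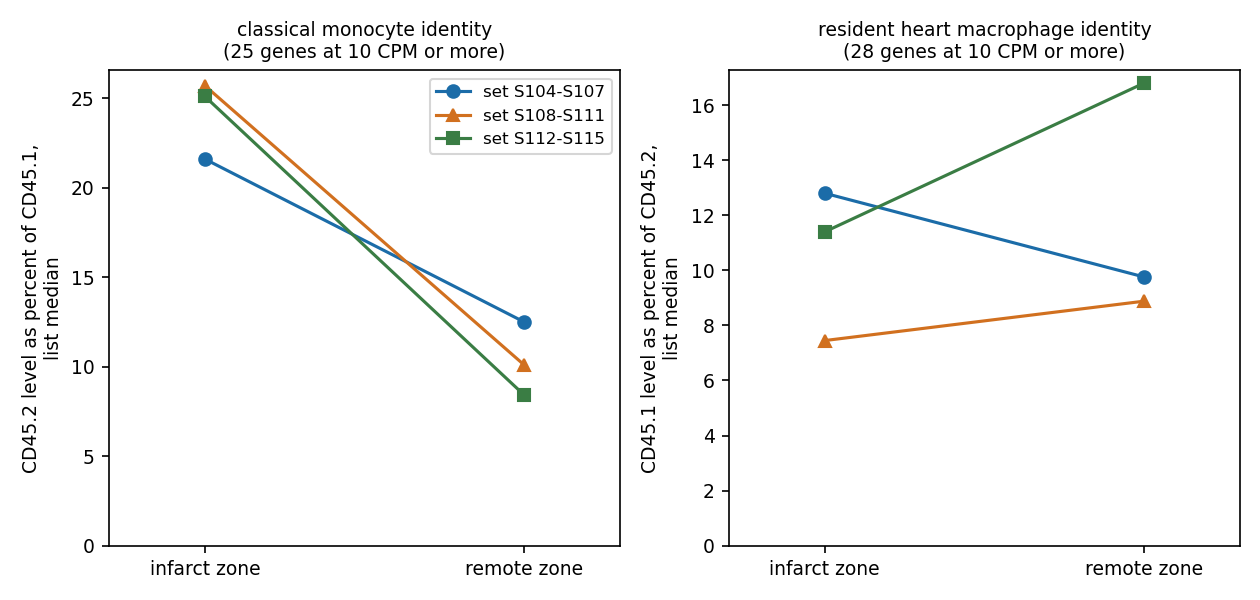
Left, median CD45.2+ level as percent of the CD45.1+ level over 25 classical monocyte genes, and right, median CD45.1+ level as percent of the CD45.2+ level over 28 resident macrophage genes, in the infarct and the remote zone, with 1 line per library set. On the left all 3 lines are higher in the infarct zone (21.6% to 25.7%) than in the remote zone (8.42% to 12.5%). On the right they do not share a direction. The lines restate the zone effect difference for these lists.

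Neutrophils carry some of the same genes, and their markers moved with this result. Of 15 neutrophil markers 9 passed the filter on low counts, 8 of these 9 had a difference above 0, also within each of the 3 sets, and their median was 1.35 (0.89, 2.06 and 1.91 by set), above that of the monocyte list. In the blocked fit 1 of the 9, Mmp8, passed for the difference (0.495% of all genes passed as positive). In that fit 3 were higher in IZ in CD45.2+ cells (Mmp8, Lcn2 and S100a8), as were 5.06% of all genes. Lcn2, an iron-binding protein of neutrophils and activated macrophages, was at 4.24, 4.65 and 4.17 CPM in CD45.2 IZ and 1.97, 1.11 and 1.65 CPM in CD45.2 RZ libraries, against 21.3, 14.7 and 12.6 CPM in CD45.1 IZ and 18.5, 18.8 and 7.48 CPM in CD45.1 RZ libraries (difference 1.35 ± 0.48, adjusted p = 0.298 in the blocked fit). S100a8, a calcium-binding protein of neutrophils and monocytes, had 54 to 260 counts in CD45.2 IZ and 12 to 118 in CD45.2 RZ libraries, against 91 to 802 in CD45.1 IZ and 68 to 607 in CD45.1 RZ libraries, and the zones overlapped in both kinds of cell. Summed CPM of all 15 neutrophil markers was 93.4 to 123 in CD45.2 IZ, 79.0 to 85.7 in CD45.2 RZ, 231 to 309 in CD45.1 IZ and 248 to 345 in CD45.1 RZ libraries, and the difference of its zone effects was positive in each set (0.28, 0.71 and 0.68). The defining marker Ly6g had 0 counts in every CD45.2+ library and at most 4 in any CD45.1+ library, and Camp, Ngp and Ltf had at most 11 counts in any library. Csf3r, the receptor for granulocyte colony-stimulating factor, had at least 2570 counts in every library. The part of neutrophils in the monocyte result was not tested.

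Proteins that build or cut matrix included 5 positive genes among 33 listed, Mmp14, Thbs1, Mmp8, Vcan and Fn1, of which 3 are also on the monocyte list, and 0 negative ones (0.495% and 0.00533% of all genes). The median difference of the list was 0.38, against 0.04 over all genes, and 25 of the 33 were above 0. Mmp14, a membrane-bound collagenase that also activates other proteases, was at 189, 139 and 124 CPM in CD45.2 IZ and 62.8, 38.0 and 36.7 CPM in CD45.2 RZ libraries, against 313, 252 and 267 CPM in CD45.1 IZ and 332, 284 and 199 CPM in CD45.1 RZ libraries. The CD45.2+ zones were apart and the CD45.1+ ones overlapped, and the difference was 1.69 ± 0.35 (adjusted p = 0.00322 in the blocked fit). Thbs1, thrombospondin, a matrix protein that binds cells and growth factors, was at 1249.8, 890.1 and 1393 CPM in CD45.2 IZ and 422, 312 and 217 CPM in CD45.2 RZ libraries, against 6965, 3883 and 7259 CPM in CD45.1 IZ and 7615, 7690.3 and 5628 CPM in CD45.1 RZ libraries. Its difference was 2.10 ± 0.42 (called in 4 of 12 fits with 1 library left out), and that of Gm29233 at the same place also passed. Mmp8, the collagenase stored in neutrophils, and Vcan, the proteoglycan versican, had differences of 2.21 ± 0.36 and 2.26 ± 0.46. Timp1, an inhibitor of metalloproteases, gave 2.04 ± 0.49 and just missed the threshold in the blocked fit (adjusted p = 0.0523).

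Lipid-associated macrophage genes, which mark macrophages that take up dead cells and lipid, had a median difference of 0.42 with 22 of 24 above 0, and 3 passed in the blocked fit (Spp1, Fabp5 and Syngr1, against 0.495% of all genes). Spp1, osteopontin, a secreted protein that binds matrix and integrins, was at 7905, 3015 and 2435 CPM in CD45.2 IZ and 835, 446 and 258 CPM in CD45.2 RZ libraries, against 23829, 12778 and 11012 CPM in CD45.1 IZ and 10615, 10103 and 6794 CPM in CD45.1 RZ libraries. Unlike most of the positive genes it was also above the remote zone in CD45.1+ cells without overlap, where the zone effect was 0.79 ± 0.51 and did not pass in either fit. The zone effect in CD45.2+ cells was 3.12 ± 0.54 and the difference 2.33 ± 0.72 (2.08, 2.42 and 2.54 by set, adjusted p = 0.00877 in the blocked fit). Fabp5, a fatty acid carrier, was at 105.5, 40.0 and 81.0 CPM in CD45.2 IZ and 33.1, 13.5 and 20.8 CPM in CD45.2 RZ libraries, against 362, 179 and 417 CPM in CD45.1 IZ and 517, 354 and 635 CPM in CD45.1 RZ libraries. Here the 2 zone effects pointed in opposite directions, 1.75 ± 0.43 in CD45.2+ and -0.65 ± 0.42 in CD45.1+ cells, of which the one in CD45.1+ cells passed in neither fit (adjusted p = 0.114 with blocks). The difference was 2.40 ± 0.60 (2.18, 2.54 and 2.57 by set). Gpnmb, a glycoprotein of lipid-laden macrophages, had a difference of 2.35 ± 0.72 and missed the threshold (adjusted p = 0.0537 in the blocked fit).

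Among secreted signals, Osm and Cxcl3 passed of 33 inflammatory cytokines and chemokines (list median 0.30, and 0.495% of all genes passed), in 5 and 4 of the 12 fits with 1 library left out. Osm, oncostatin M, a cytokine of the interleukin-6 family to which heart muscle cells respond, was at 176, 165 and 152 CPM in CD45.2 IZ and 67.4, 61.0 and 47.0 CPM in CD45.2 RZ libraries, against 584, 495 and 503 CPM in CD45.1 IZ and 456, 710.3 and 377 CPM in CD45.1 RZ libraries. The CD45.1 RZ libraries lay on both sides of the CD45.1 IZ ones, the CD45.2+ zones did not overlap, and the difference was 1.45 ± 0.30. Cxcl3, a chemokine for neutrophils, was at 84.9, 28.8 and 30.7 CPM in CD45.2 IZ and 9.08, 9.51 and 3.95 CPM in CD45.2 RZ libraries, against 326, 111.9 and 164 CPM in CD45.1 IZ and 335, 305 and 98.6 CPM in CD45.1 RZ libraries, a difference of 2.98 ± 0.82. Outside the list Tnfsf14, the TNF family ligand LIGHT, passed with 2.08 ± 0.36, and Ppbp, a chemokine best known from platelets, with 2.22 ± 0.73. Ppbp, like some others named below, was taken from the 94 called genes after their values were seen.

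Receptors were found in several lists, where 0.495% of all genes passed as positive. Of 29 pattern receptors, Clec4e and Trem1 passed (list median 0.14). Trem1, which amplifies inflammatory signals, had a difference of 2.02 ± 0.58. Of 22 chemokine receptors and adhesion molecules, the integrin chains Itgb7 (1.59 ± 0.47) and Itga6 (0.88 ± 0.21) passed (list median 0.26). Of 35 growth and guidance factors and their receptors, Igf2r and Met passed (list median 0.27), and of 24 uptake receptors the inhibitory receptor Cd300lf (1.74 ± 0.31, list median 0.13). Trem1 and Itga6 were called in 2, Igf2r in 4 and Cd300lf in 5 of the 12 fits with 1 library left out. Met, the receptor for hepatocyte growth factor, was at 6.56, 17.9 and 10.3 CPM in CD45.2 IZ and 0.549, 2.42 and 0.451 CPM in CD45.2 RZ libraries, against 30.7, 71.3 and 50.6 CPM in CD45.1 IZ and 22.7, 43.5 and 18.3 CPM in CD45.1 RZ libraries. In both kinds of cell each IZ library was above the RZ library of its set, by a wider margin in CD45.2+ cells, and the difference was 2.50 ± 0.84. Igf2r, the receptor that carries mannose-6-phosphate enzymes to the lysosome and binds IGF2, had a difference of 2.56 ± 0.51, with 30.6, 21.8 and 22.8 CPM in CD45.2 IZ and 5.71, 3.35 and 1.26 CPM in CD45.2 RZ libraries, against 95.0, 118 and 114.3 CPM in CD45.1 IZ and 99.4, 83.1 and 82.2 CPM in CD45.1 RZ libraries. Its CD45.2+ zones were apart and its CD45.1+ zones overlapped.

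Other receptors and surface proteins were outside the lists and were taken from the called genes after their values were seen. Nt5e, the enzyme CD73 that makes adenosine from AMP, was at 42.6, 24.2 and 11.6 CPM in CD45.2 IZ and 3.92, 2.34 and 1.07 CPM in CD45.2 RZ libraries, against 99.0, 89.9 and 36.7 CPM in CD45.1 IZ and 63.6, 66.3 and 16.1 CPM in CD45.1 RZ libraries. Its levels were lowest in set S112-S115 in all 4 groups, and the difference was 2.79, 2.91 and 2.198 by set. Ltb4r1, the high-affinity receptor for leukotriene B4, was at 55.1, 65.3 and 47.2 CPM in CD45.2 IZ and 12.4, 11.3 and 6.10 CPM in CD45.2 RZ libraries, against 228, 283 and 202 CPM in CD45.1 IZ and 155, 261 and 140.0 CPM in CD45.1 RZ libraries (difference 2.13 ± 0.40). Ptger2, a receptor for prostaglandin E2, passed with 1.18 ± 0.25, and podoplanin (Pdpn), which binds the platelet receptor Clec1b, with 2.09 ± 0.56. All 4 genes were positive in each set.

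Of 33 macrophage transcription factors, Bhlhe40 and Hif1a passed (0.495% of all genes did) while the list as a whole was centred near 0 (median -0.03, 14 above 0). Hif1a, the oxygen-regulated subunit of the hypoxia-inducible factor, was at 339.7, 277 and 275 CPM in CD45.2 IZ and 175, 139 and 135 CPM in CD45.2 RZ libraries, against 867, 862 and 918 CPM in CD45.1 IZ and 930.1, 1002 and 878 CPM in CD45.1 RZ libraries. All CD45.2 IZ libraries were above the CD45.2 RZ libraries and the CD45.1+ zones overlapped, with a difference of 1.07 ± 0.19 (1.05, 1.21 and 0.96 by set, adjusted p = 0.0172 in the blocked fit). It was called in 5 of the 12 fits with 1 library left out. Hif1a shares exon positions with Gm15283 and Gm49321. Runx2, a factor of the Runt family, also passed, outside the list (2.18 ± 0.46), together with its antisense gene Runx2os1. With 1 library left out, Runx2 was called in 4 of the 12 fits and Runx2os1 in 0, the only one of the 94 genes lost in each.

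Hypoxia and glycolysis genes, many of them targets of Hif1a protein, leaned the same way with no call by edgeR. The median difference of the 36 genes was 0.51, with 29 above 0, 25 positive in all 3 sets (21.3% of all genes were) and a median of 0.48, 0.80 and 0.41 by set. With edgeR 0 of the 36 passed, with 8 at an unadjusted p under 0.05 without blocks and 20 with them, while DESeq2 called 1 without blocks and 5 with them, limma-trend 0 and 1, and limma-voom 0. In CD45.2+ cells 17 of the 36 were higher in IZ in the blocked fit (5.06% of all genes were) and 3 without blocks (1.46%). In CD45.1+ cells edgeR, DESeq2 and limma called 0, with 0 at an unadjusted p under 0.05 without blocks and 3 with them. Vegfa, the vessel growth factor, had the smallest p of the list in the fit without blocks and was at 28.1, 16.7 and 26.2 CPM in CD45.2 IZ and 4.29, 7.78 and 2.88 CPM in CD45.2 RZ libraries, against 139, 51.3 and 101 CPM in CD45.1 IZ and 106.03, 117 and 67.0 CPM in CD45.1 RZ libraries. Its CD45.1+ values scattered over the same range in both zones, and the difference of 2.25 ± 0.57 did not pass (adjusted p = 0.128 in the blocked fit). The lipid droplet gene Hilpda (1.51 ± 0.54) and Ndrg1 (1.01 ± 0.31) did not pass either. In the lysosome list 31 of 39 differences were above 0 (median 0.22). Of the 39 only the protease gene Ctsl passed in the blocked fit, where 0.495% of all genes passed as positive. Its difference was 1.14 ± 0.31, called in 2 of 12 fits with 1 library left out.

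Aplnr was the only gene with a negative call. It encodes the receptor for apelin, which is best known from endothelial cells. It was at 1.28, 14.1 and 16.2 CPM in CD45.2 IZ and 2.84, 15.5 and 19.3 CPM in CD45.2 RZ libraries, against 1.05, 3.43 and 4.68 CPM in CD45.1 IZ and 0.173, 1.10 and 1.76 CPM in CD45.1 RZ libraries. Within every set it was lower in IZ in CD45.2+ cells and higher in IZ in CD45.1+ cells, with differences of -3.48, -1.75 and -1.64. Across sets the zones overlapped, in CD45.1+ cells because set S104-S107 was low throughout. In CD45.2+ cells they overlapped in the other sets as well, with 14.1 and 16.2 CPM in IZ against 15.5 and 19.3 CPM in RZ libraries. The estimate was -1.85 ± 1.36 without blocks (adjusted p = 1) and -2.24 ± 0.40 with them (adjusted p = 0.0397). Summed endothelial markers were 146 to 458 CPM in CD45.2 IZ, 163 to 367 CPM in CD45.2 RZ, 191 to 276 CPM in CD45.1 IZ and 164 to 221 CPM in CD45.1 RZ libraries, with differences of zone effects of -0.37, 0.34 and -0.10 by set, and their part in the Aplnr value was not tested. The genes of smallest p on the negative side that filled up the named set, among them Wfs1 (-0.85 ± 0.20), Fam118a (-0.92 ± 0.21), Dennd2c (-0.98 ± 0.23), Tmod1 (-0.73 ± 0.17) and the scavenger receptor Colec12 (-1.14 ± 0.34), did not pass in either fit, with adjusted p from 0.0711 upward in the blocked fit.

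A few positive genes departed from the usual order of the groups, and were singled out after their values were seen. Cmah, which converts one sialic acid into another, was a gene of CD45.2+ cells that was lower in IZ in both kinds of cell. It was at 26.0, 42.1 and 45.103 CPM in CD45.2 IZ and 60.3, 102.2 and 79.1 CPM in CD45.2 RZ libraries, against 0.362, 0.259 and 0.270 CPM in CD45.1 IZ and 1.495, 2.30 and 2.90 CPM in CD45.1 RZ libraries. Its positive difference (1.80 ± 0.44, adjusted p = 0.0396 in the blocked fit) came from a smaller decrease in CD45.2+ cells (zone effect -1.09 ± 0.26) than in CD45.1+ cells (-2.89 ± 0.35). Hvcn1, the voltage-gated proton channel of phagocytes, had a zone effect of 0.24 ± 0.32 in CD45.2+ cells and -0.90 ± 0.32 in CD45.1+ cells, so that the difference of 1.14 ± 0.45 lay mostly on the CD45.1+ side. Olfml3, a secreted glycoprotein, had the smallest positive difference (0.68 ± 0.38 without blocks, 0.68 ± 0.12 with them), and its zone effects of 0.35 ± 0.27 in CD45.2+ and -0.32 ± 0.27 in CD45.1+ cells were of like size and opposite sign. Cmah was called in 4, Hvcn1 in 2 and Olfml3 in 1 of the 12 fits with 1 library left out.

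Genes of resident heart macrophages were on balance lower in the infarct zone in both kinds of cell, and no difference passed with edgeR. Of 31 listed, edgeR called 0 for the difference in either fit, with 2 at an unadjusted p under 0.05 without blocks and 4 with them, and DESeq2 called 0 without blocks and 1, as negative, with them. The median over the list was 0.26 and changed sign between sets (-0.26, -0.05 and 0.36), and single genes ran from -2.03 to 2.75, which does not show that the zone effects were alike. Both zone effects had a negative median, -0.96 in CD45.2+ cells and -0.93 in CD45.1+ cells, with 18 of the 31 lower in IZ in the blocked fit in CD45.2+ cells (2.7% of all genes were), 1 of them without blocks (0.293%), and 7 in CD45.1+ cells (0.25% of all genes, and 0 without blocks, with 16 at an unadjusted p under 0.05 and 8 called by DESeq2). Lyve1, which binds hyaluronan, stood at 588, 645 and 993 CPM in CD45.2 IZ and 1839, 1463 and 1545 CPM in CD45.2 RZ libraries, against 6.397, 12.7 and 6.10 CPM in CD45.1 IZ and 24.3, 44.8 and 34.0 CPM in CD45.1 RZ libraries. The zones were apart in both kinds of cell, with zone effects of -1.12 in CD45.2+ and -2.04 in CD45.1+ cells, and the difference of 0.91 ± 0.43 did not pass (adjusted p = 0.623 in the blocked fit). Cd163, the receptor for haptoglobin and hemoglobin, gave 0.73 ± 0.41, and F13a1, a coagulation factor subunit, gave -0.63 ± 0.23, neither of which passed.

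Several lists leaned one way with no call by edgeR. Of 81 cytosolic ribosomal protein genes 80 had a difference above 0 (median 0.34, and 0.36, 0.60 and 0.09 by set). Of 61 oxidative phosphorylation subunits 59 were above 0 (median 0.26, and 0.12, 0.51 and 0.22 by set). Single genes ran from -0.86 to 0.985 in the ribosomal list and from -0.039 to 0.67 in the oxidative phosphorylation list. Immediate early and heat shock genes had a median of -0.47 (-0.21, -0.58 and -0.35 by set) with 17 of 31 negative in all 3 sets, against 13.5% of all genes. Type I interferon response genes had a median of -0.20 with 28 of 36 below 0, but the median by set was -0.76, -0.26 and 0.23, and MHC class II genes likewise changed sign (-0.30, -0.56 and 0.23). In all 5 lists edgeR called 0 genes for the difference in either fit. At an unadjusted p under 0.05 without blocks there were 0 ribosomal, 0 oxidative phosphorylation, 0 interferon, 4 immediate early and 2 MHC class II genes, and with blocks 12, 5, 0, 10 and 3. DESeq2 without blocks called 1 immediate early gene as positive and 2 MHC class II genes, 1 in each direction, and 0 in the other lists. The cell cycle list was near 0 (median -0.03). DESeq2 size factors and a TMM subset moved the median of all genes by -0.0114 and 0.000848.

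**Figure D4:**
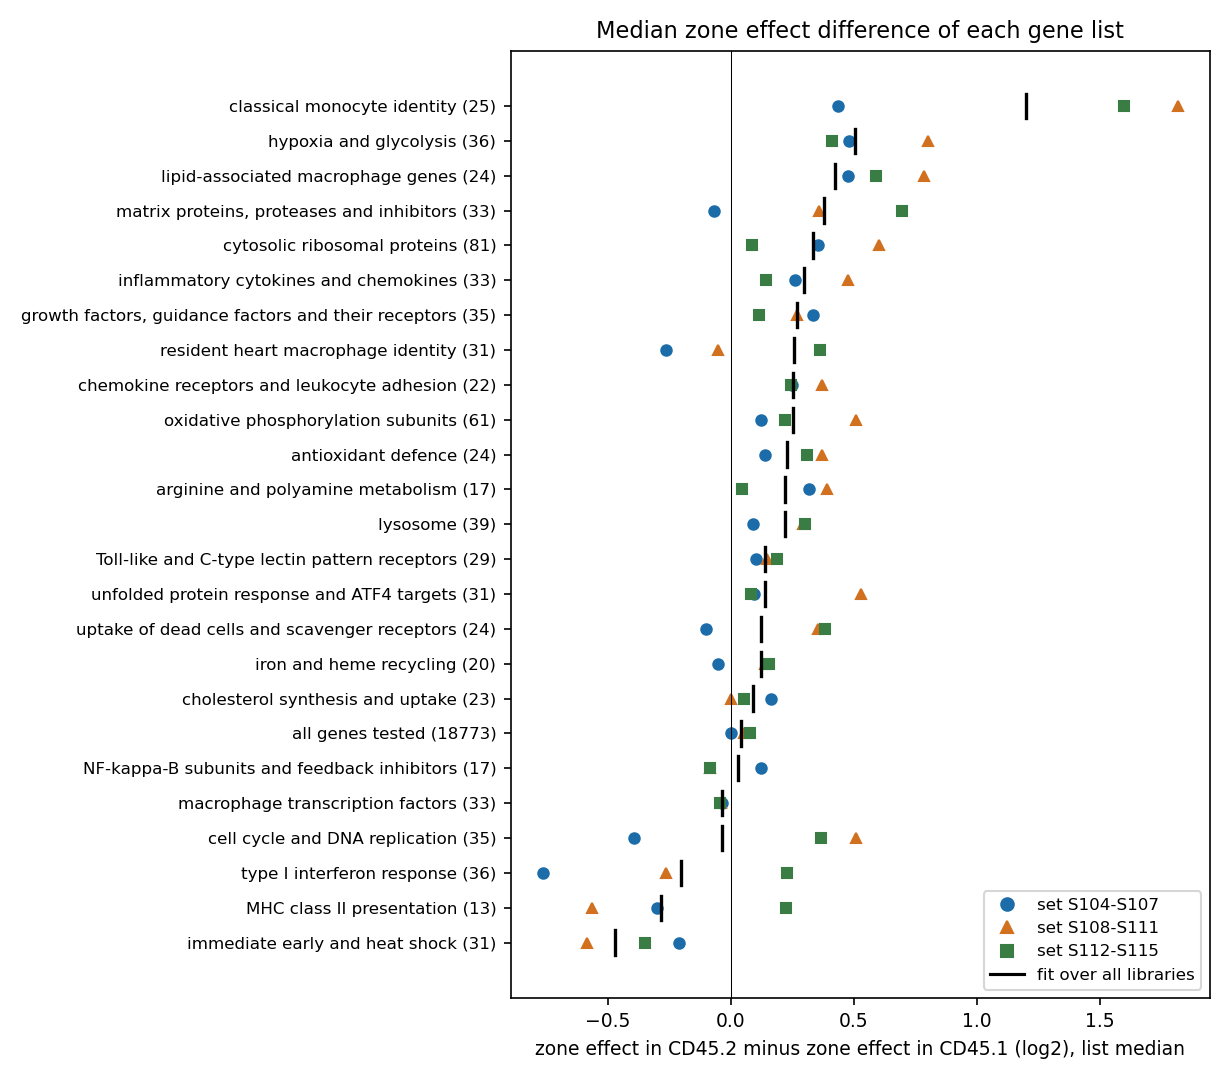
Median over each of 24 lists of gene programs of the zone effect in CD45.2+ minus that in CD45.1+ macrophages (log2), for each library set (coloured markers) and from the fit over all libraries without blocks (black bar), with the number of genes tested in brackets. These lists were chosen with earlier results of these data known and leave out markers of other cell types such as neutrophils (median 1.35). Among them the classical monocyte list has the bar furthest to the right (1.20), with a set S104-S107 value of 0.44. The immediate early list is left of 0 in all 3 sets.

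Some calls count the same reads or are of low level. Of the 93 positive genes 37 share exon positions with another gene, as do 7785 of all 18773 tested genes. At 10 places called genes overlap each other, which covers 22 of the 93, so that the 93 genes stand for 81 separate loci. Examples are Fn1 with Apol7d, Spp1 with Gm42793 and Gpat3 with Gm42987 and 4930458D05Rik. Reads were counted without strand, so these partners cannot be told apart. Ly6c2 with I830127L07Rik, and Sirpb1c with Sirpb1b, Gm5150 and Gm9733, belong to families of near-identical genes among which reads may be split. The 3 largest fitted values, for Gpr15 (7.90) and a pair of overlapping Gm24022 entries (6.92 each, called in 3 of 12 fits with 1 library left out), belong to genes with few reads. Gpr15 had 0 counts in all 3 CD45.2 RZ libraries and 0.249 to 0.678 CPM in CD45.2 IZ libraries, so its fitted size depends on the model and is no bound.

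Markers of other heart cells are given because they differed between libraries. Heart muscle genes summed to 97.2 to 187 CPM in CD45.2 IZ, 99.5 to 212 CPM in CD45.2 RZ, 44.2 to 64.7 CPM in CD45.1 IZ and 49.4 to 77.1 CPM in CD45.1 RZ libraries, with a difference of zone effects of 0.07, 0.07 and 0.08 by set. Xirp2, an actin-binding protein of heart muscle, is the 1 heart muscle gene among the 93 and was at 3.79, 2.85 and 3.63 CPM in CD45.2 IZ and 0.151, 0.123 and 0.173 CPM in CD45.2 RZ libraries, against 2.35, 2.33 and 1.87 CPM in CD45.1 IZ and 0.518, 0.817 and 0.546 CPM in CD45.1 RZ libraries. It was higher in IZ without overlap in both kinds of cell, and was called in 3 of the 12 fits with 1 library left out. Fibroblast markers summed to 659.8 to 1997 CPM in CD45.2 IZ, 764 to 1242 CPM in CD45.2 RZ, 909 to 1182 CPM in CD45.1 IZ and 879 to 919.8 CPM in CD45.1 RZ libraries (-0.26, -0.51 and 0.48 by set). Lymphocyte markers were at 23.5 to 39.6 CPM in CD45.2 IZ, 28.0 to 43.6 CPM in CD45.2 RZ, 4.09 to 7.10 CPM in CD45.1 IZ and 4.80 to 11.4 CPM in CD45.1 RZ libraries. With the heart muscle level as a covariate and blocks the count was 140 positive and 3 negative genes, and 89 of the 93 positive genes were among them.

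The count of positive genes depended on single libraries. With 1 library left out at a time, the blocked fit called 21 genes without S109 (CD45.1 IZ) and 209 without S106 (CD45.2 RZ), and at least 43 without any other. It called 48 without S105, 51 without S108, 53 without S107, 57 without S111 and 43 without S115. Of the 93 genes, 20 were called in all 12 of these fits, among them Uck2, Bhlhe40, Ly6c2, Fn1, Fabp5, Mmp14, Mmp8, Vcan, Hp, Napsa, Nt5e, Ltb4r1, Itgb7, Pdpn and Syngr1, and 50 in 6 or more. The sign was positive in all 12 fits for all 93. Without a whole set, where only 2 libraries per group remain, 90 positive genes were called without S104-S107, 10 without S108-S111 and 0 without S112-S115. Aplnr, the negative gene, was called in 3 of the 12 fits (without S105, S106 or S111) and lost without any of the other libraries.

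**Figure D5:**
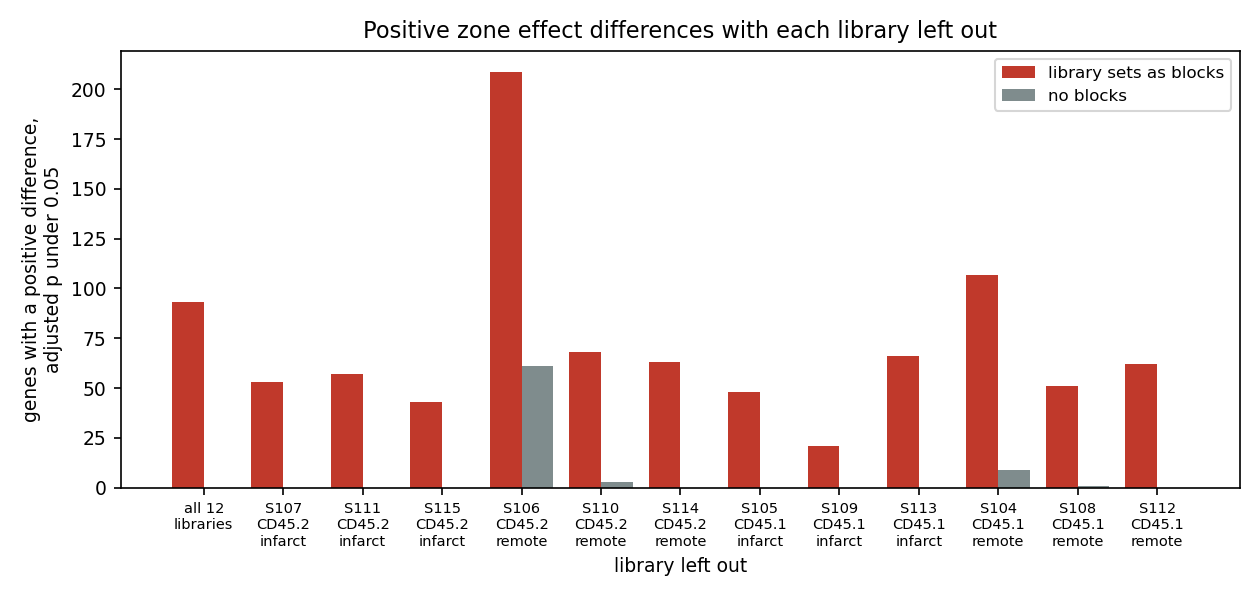
Number of genes with a positive difference at an adjusted p under 0.05 in all 12 libraries and with each library left out in turn, with library sets as blocks (red bars) and without blocks (grey bars). Red bars run from 21 (without S109) to 209 (without S106), against 93 with all libraries, and grey bars are at 0 except without S106 (61), S104 (9), S110 (3) and S108 (1).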

How the data were processed

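Libraries were made from sorted macrophages with SMART-Seq v4 cDNA. Per the labels and the study's methods, the authors aligned reads to GRCm38.p6 with HISAT2 2.2.1 and deposited raw counts per gene from featureCounts (Subread 2.0.1), assigning a read pair to every gene it overlaps, without strand and with replicates kept apart. Counts were analysed as deposited, with 12 of 12 columns used. Genes were kept by filterByExpr (10 counts, 15 in total), scaled by TMM and tested with edgeR 4.0.16 (quasi-likelihood, R 4.3.3) on 4 groups of 3 libraries, Benjamini-Hochberg threshold 0.05. SE was taken from the fold change on the log2 scale and the F value. CPM in the text uses TMM-scaled library sizes, and CPM by set a prior count of 2. The script was tested on simulated data. As no method states a block, the test without blocks was the main one. The library set was a block where every same-set pair of libraries correlated above 0.1 in its deviations (lowest r = 0.118). This held for all 18 pairs. Most pairs of S108-S111 with S112-S115 were also above 0.1, so this rule does not tell those sets apart. Set membership comes from the running library numbers. DESeq2 1.42.0, limma 3.58.1, other scalings and filters, and leaving out libraries or sets were alternatives.

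Named genes were the 12 per direction with the largest difference past the threshold at 10 CPM or more, filled by smallest p where fewer passed, and the 3 of smallest p in each list. Other genes belong to the 94 called with blocks, serve as checks of sex or cell type, or are further list members. The last (Timp1, Gpnmb, Cd177, S100a4, Ifitm3, Cd163, Lcn2 and S100a8) were not picked by a rule. Exon overlap was computed from the annotation, and 7785 of the 18773 tested genes had one. Members and lists were chosen with earlier results of these data known. Promoters are RefSeq's. At 33253340 or more summed counts per library, a gene at 1 CPM has over 30 counts, and intervals from counting alone would not cover the spread between libraries.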

Additional observations from a re-analysis of the deposited data

Results flagged for a closer look

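The difference of the zone effects between CD45.2+ and CD45.1+ macrophages was tested itself, with library sets as blocks. This fit called 93 genes in the positive and 1 gene, Aplnr, in the negative direction of 18773 tested (edgeR, adjusted p under 0.05). The main test, without blocks, called 0 genes. The blocked fit called 10 positive genes without set S108-S111 and 0 without S112-S115. Groups of 3 libraries are too small for a test of single outlying libraries, and all columns of the table were used.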

How the results depend on the processing

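The count of positive differences was 0 without blocks, 93 with the library sets as a replicate block and 325 with 1 difference of differences per set tested by limma, and that of negative differences 0, 1 and 65. The same fits called 330, 1457 and 1700 genes for the zone effect in CD45.2+ cells and 0, 59 and 2 in CD45.1+ cells. Without blocks, the positive and negative counts were 139 and 24 with DESeq2, 3 and 0 with limma-trend, 25 and 0 with limma-voom, 30 and 0 with no filter on low counts, 14 and 0 with at least 1 CPM in 6 libraries, and 31 and 0 with the heart muscle level as a covariate; DESeq2 size factors, a TMM subset and leaving out genes with overlapping exons gave 0 and 0. The zone effect in CD45.2+ cells was called for 1154 genes with DESeq2, 674 with limma-voom, 807 with the covariate and 213 without overlapping exons, and that in CD45.1+ cells for 190 with DESeq2, 1 with limma-trend, 14 with no filter and 1 without overlapping exons. Leaving out set S104-S107 gave 34 positive and 1 negative genes and 5 in CD45.1+ cells; leaving out S108-S111 or S112-S115 gave 0 and 0, and 9 and 33 genes in CD45.2+ cells. With 1 library left out, positive counts ran from 0 to 61, negative ones stayed at 0, CD45.2+ counts ran from 137 to 1143 (main 330) and CD45.1+ counts from 0 to 2.

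With the replicate block, chosen as the base for these added alternatives after the data were seen, the positive and negative counts were 278 and 44 with DESeq2, 91 and 2 with DESeq2 size factors, 93 and 1 with the TMM subset, 140 and 3 with the covariate, 90 and 5 without set S104-S107, 10 and 0 without S108-S111 and 0 and 0 without S112-S115; limma-trend gave 17 negative genes. With 1 library left out they ran from 21 to 209 and from 0 to 13. Of the 90 named genes, 28 passed with the block, and 3 cell cycle genes that passed nowhere changed sign. Cdc20 gave 0.11 with limma-voom and 0.0090 without set S104-S107, and Ccne1 between -0.036 and 2.18 with 1 library left out. Bub1b gave 0.0113 with limma-trend and with 1 difference per set, 0.46 with limma-voom, 0.27 without set S104-S107, and between -0.50 and 0.47 with 1 library left out. The causes of these shifts were not tested. Depth was not varied. Where a replicate was left out, the lone pair of libraries was assumed to vary like the other groups. Genes removed by a filter have no value there.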
